A study of Sus scrofa with 24 samples.

Results

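Germinal centre regulators are genes that B cells use, or are known to switch on, while they divide and mutate their antibody genes inside lymphoid follicles. The set held 5 genes, ELL3, BACH2, BCL6, BCL7A and RGS13, and was measured on Agilent one-colour arrays of pig tissue. A probe counted as a member's when the array file gave that gene's name to it. By this rule 4 of the 5 genes had a probe, with 6 probes in all. ELL3, BACH2 and BCL7A were measured well enough to be tested, among 10676 genes tested in all. The probe named BCL6 stayed near background, and RGS13 is not analysed here because no probe used here carried its name.

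The samples were jejunum that contained Peyer's patches (called Peyer), spleen, jejunum without patches and liver, with 1 piece of each from 6 crossbred pigs, which gave 24 arrays. The pigs were weaned at day 28, fed a standard diet without restriction and killed at 10 weeks of age. None of the groups carried a treatment or a mutation, and the same 6 animals, numbered 68, 69, 70, 71, 73 and 75, supplied every tissue. Peyer samples still held the gut wall around the follicles, and all 7 enterocyte genes checked were called higher in Peyer than in Spleen.

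A germinal centre forms when activated B cells gather around follicular dendritic cells, divide quickly and edit their antibody genes. BCL6, a zinc finger repressor, holds the programme in place, and BACH2, a leucine zipper repressor that pairs with small MAF proteins, delays the change into antibody-secreting plasma cells. BCL7A is a subunit of the BAF chromatin remodelling complex. ELL3 belongs to the ELL family of RNA polymerase II elongation factors, and RGS13 shortens signalling from chemokine receptors. Peyer's patches hold germinal centres more or less continuously because gut microbes and food supply antigen.

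The probes on which the results rest are shown by 30 of their 60 bases, 5′ to 3′ as the array files list them, since each value is the brightness of one such sequence. In the first, bases 11 to 40 of the ELL3 probe used throughout, capitals mark the start of a run of 39 bases that it shares with a second ELL3 probe, so these probes read nearly the same stretch of the transcript. The others are bases 1 to 30.
ELL3 probe 1: ggaagggcgtgGGTGTTGCCCATGTACTGA
ELL3 probe 3: actgtagaacaaaaagaaaagaggctcaga
BACH2 probe: acggacagttttcacacatatctacctgta
BCL7A probe: catggtttggaatgttcgttatcagccaag
BCL6, probe named in the file: tggttcgccttacacataggagaagaagca
BCL6, probe tied to the gene by accession: tttggctgtgtctaaactgcattaccgcgt
The last of these carries no gene name in the array file but lists a RefSeq transcript of BCL6. It was added beside the rule after the values had been seen, because the named probe gave no usable signal.

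Signals at the 75th percentile of all probes were 877 to 2262 in Peyer, 275 to 1098 in Spleen, 681 to 1001 in Jejunum and 424 to 526 in Liver, and between 60.4% and 75.6% of the probes on each array gave a signal well above background. Levels are log2 signals relative to that percentile of the same array, so a level of 0 is the 75th percentile and 1 unit is a 2-fold difference. A gene was called when the adjusted p was under 0.05 and the difference at least 2-fold. Slides 1, 2 and 3 held Liver and Spleen, and slides 4, 5 and 6 held Jejunum and Peyer. Slide and tissue therefore cannot be told apart for Peyer or Jejunum against Spleen or Liver. One array stood apart from its group. The Peyer array of animal 71 correlated with the Jejunum array of the same animal at r = 0.992 over all probes and with the other Peyer arrays at 0.948 to 0.962, whereas the other Peyer arrays correlated among themselves at 0.968 or more. Its mean level of 8 B cell genes was -0.79, against 1.99 to 2.23 on the other Peyer arrays, and its mean level of 7 enterocyte genes was 6.06, against 4.23 to 4.98 on the other Peyer arrays and 5.86 to 6.32 on the Jejunum arrays. The members' differences from Peyer are therefore given with and without that array for the probes the results rest on, and the counts over gene lists are given without it where it changed them.

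Peyer had the highest mean level of ELL3, BACH2 and BCL7A among the 4 tissues. All 3 tested members were called higher in Peyer than in Spleen, than in Jejunum and than in Liver. Of all genes tested, 10.6% were called higher in Peyer than in Spleen, 5.85% higher than in Jejunum and 19.1% higher than in Liver. With bulk tissue, a higher share of cells of a type and more RNA per cell cannot be told apart. Between Peyer and Spleen the size was 3.02-fold for ELL3, 3.91-fold for BACH2 and 4.35-fold for BCL7A.

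ELL3, the elongation factor, had levels in Peyer of 0.85 at the lowest, 4.33 at the median and 4.37 at the highest. In Spleen the lowest, median and highest levels were 1.45, 2.15 and 2.69. The lowest Peyer value was that of animal 71 and lay below every Spleen value, while the other 5 Peyer arrays lay above every Spleen array. The mean was 3.73 ± 1.41 in Peyer and 2.14 ± 0.43 in Spleen (SD, n = 6 each). The difference of 1.59 ± 0.43 (SE) had an adjusted p of 0.0033 by limma and pointed the same way in 5 of 6 animals. Without the Peyer array of animal 71 it was 2.17 ± 0.22, with an adjusted p of 2.3e-08.

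ELL3 levels in Jejunum ran from -3.71 to -2.92 with a median of -3.20, and in Liver from -3.03 to -1.89 with a median of -2.31. No Peyer or Spleen value fell within either range. Only 4 of the 10676 genes had a larger difference than ELL3 between Peyer and Jejunum, which was 129-fold. The 6 animals each showed ELL3 higher in Peyer than in Liver, with a mean difference of 6.10 ± 0.43 and an adjusted p of 1.29e-11. With the Peyer array of animal 71 left out, the ELL3 difference was 7.59 ± 0.22 against Jejunum and 6.68 ± 0.22 against Liver. Spleen exceeded Jejunum by 5.42 ± 0.43 and Liver by 4.51 ± 0.43, so the order was Peyer, Spleen and then Liver and Jejunum. Jejunum minus Liver was -0.91 ± 0.43 with an adjusted p of 0.0711, and these neighbours were not called apart.

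The other ELL3 probes gave a similar picture for the differences from Peyer. ELL3 probe 2, which overlaps the first, differed by 1.67 ± 0.44 between Peyer and Spleen and by 7.19 ± 0.44 between Peyer and Jejunum. ELL3 probe 3, which shares no such run with them, differed by 1.72 ± 0.48 between Peyer and Spleen with an adjusted p of 0.00398. Probe 3 was not well above background on any Jejunum array, which leaves Peyer at least 36.1-fold and Spleen at least 10.9-fold above Jejunum. Such a bound sets the bright tissue's mean against the lowest signal that counted as above background. The mean Peyer level of probe 3 was -0.625, and -0.037 without the array of animal 71. Unlike probe 1, probe 3 was called lower in Jejunum than in Liver, by -1.37 ± 0.48 (adjusted p 0.0165 by limma). It was well above background on 2 Liver arrays.

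BACH2, the repressor that holds back plasma cell genes, had levels in Peyer of -1.56 at the lowest, 1.96 at the median and 2.47 at the highest. The corresponding levels in Spleen were -1.01, -0.61 and 0.33. Again the Peyer array of animal 71 lay below all Spleen arrays and the other 5 Peyer arrays lay above all of them. BACH2 averaged 1.42 ± 1.49 in Peyer and -0.54 ± 0.46 in Spleen (SD, n = 6 each), a difference of 1.97 ± 0.45 (SE) with an adjusted p of 0.000714. It was 2.56 ± 0.22 without the Peyer array of animal 71.

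In Jejunum the BACH2 level ran from -4.53 to -3.91 with a median of -4.06, and in Liver from -3.06 to -1.91 with a median of -2.70. The Peyer value of animal 71 stood above both ranges, by the least over Liver, where that animal's own difference was 0.35. BACH2 was 47.8-fold higher in Peyer than in Jejunum and 16.3-fold higher than in Liver, with adjusted p-values of 1.99e-08 and 2.98e-08. On the log2 scale these BACH2 differences were 5.58 ± 0.45 and 4.03 ± 0.45, and 6.18 ± 0.22 and 4.63 ± 0.22 without the Peyer array of animal 71. Within each slide that held both gut tissues the Peyer minus Jejunum difference was 6.31, 4.29 and 6.14, the middle value being the slide with animals 70 and 71. Each pair of tissues differed by a called amount for BACH2, in the order Peyer, Spleen, Liver and Jejunum. Spleen exceeded Liver by 2.06 ± 0.45, and Jejunum minus Liver was -1.55 ± 0.45 (adjusted p 0.00435). BACH2 was the 1 tested member of 3 called lower in Jejunum than in Liver, where 15.9% of all genes were. ELL3 and BACH2 were the 2 members called higher in Spleen than in Jejunum (15.2% of all genes) and higher in Spleen than in Liver (20.9%).

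BCL7A, the BAF complex subunit, had Peyer levels of 1.21, 3.23 and 3.47 and Spleen levels of 0.31, 0.92 and 1.02 (lowest, median and highest). These ranges did not overlap, as was so with Peyer higher for 13.3% of all genes, and animal 71 was again the lowest Peyer sample. The mean was 2.90 ± 0.85 in Peyer and 0.78 ± 0.30 in Spleen (SD, n = 6 each). The difference of 2.12 ± 0.26 had an adjusted p of 3.41e-07 and held in 6 of 6 animals, and it was 2.46 ± 0.14 without the Peyer array of animal 71. In the authors' deposited table, which is normalized between arrays in another way, the same difference was 0.997 ± 0.25 on the log2 scale and just missed the 2-fold limit (adjusted p 0.00335).

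Jejunum ran from 0.23 to 0.65 in its BCL7A level and Liver from -0.06 to 0.35, and both ranges overlapped that of Spleen. BCL7A was 5.43-fold higher in Peyer than in Jejunum and 6.58-fold higher than in Liver, with adjusted p-values of 1.03e-06 and 2.49e-09. On the log2 scale these BCL7A differences were 2.44 and 2.72, and 2.78 ± 0.14 and 3.06 ± 0.14 without the Peyer array of animal 71. Within the slides that held both gut tissues the Peyer minus Jejunum difference was 2.99, 1.55 and 2.79, the middle value again being the slide with animal 71. Spleen minus Jejunum was 0.32 ± 0.26 (adjusted p 0.294), Spleen minus Liver 0.60 ± 0.26 (0.0451, under 2-fold) and Jejunum minus Liver 0.28 ± 0.26 (0.366). None of these 3 differences was called, and Peyer was the 1 tissue called apart from the others. With the authors' values, however, BCL7A in Spleen exceeded Jejunum by 1.53 ± 0.25, and Jejunum minus Liver turned to -0.92 ± 0.25. A pair of dim probes tied to BCL7A by accession alone did not follow the named probe. The brighter of them differed by -0.48 ± 0.50 between Peyer and Spleen (adjusted p 0.423), and the dimmer was well above background on 5 Peyer arrays and 1 Spleen array and was not tested.

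**Figure D1:**
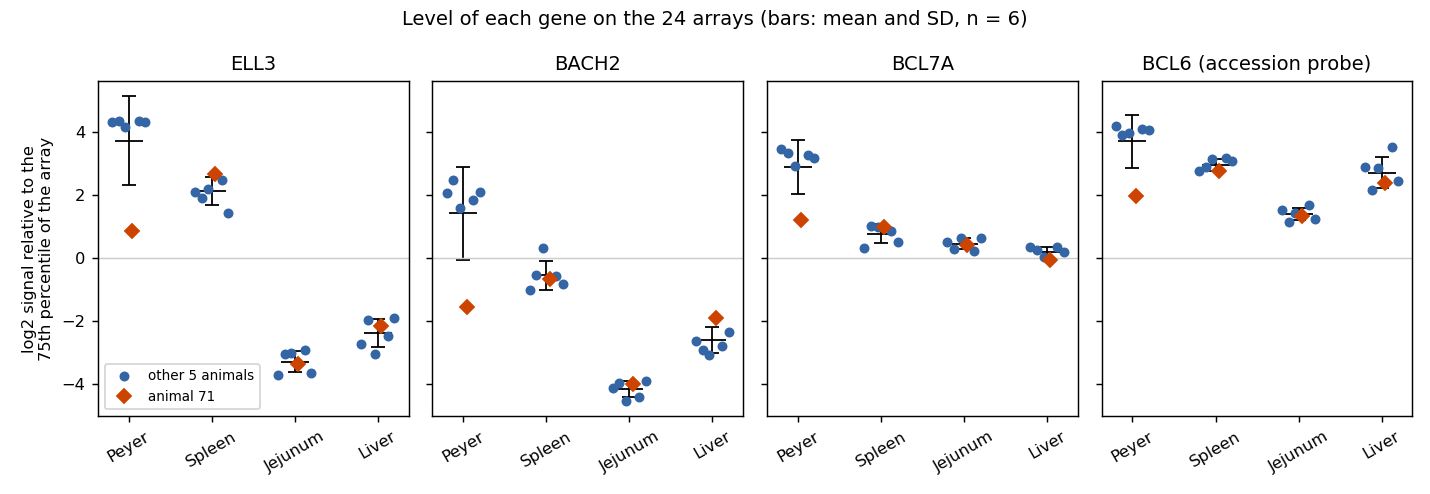
Levels of ELL3, BACH2, BCL7A and the accession-linked BCL6 probe (log2 signal relative to the 75th percentile of the array) on each of the 24 arrays, by tissue on the horizontal axis. Points are animals, diamonds mark animal 71, and bars give the mean and SD of 6 animals. The Peyer point of animal 71 is the lowest of its tissue in each panel, at 0.85 for ELL3 and -1.56 for BACH2.

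BCL6, the repressor that defines the germinal centre programme, was linked to probes that differed widely in brightness. Which of them reads BCL6 could not be settled here. The accession-linked probe had signals of 2147.2 to 4930.4 in Liver and 1529.4 to 2574.9 in Jejunum, where the named probe stayed near background. The probe that carries its name had signals of 6.5 to 52.5 in Peyer, 2.7 to 15.3 in Spleen, 3.5 to 8.5 in Jejunum and 3.2 to 7.1 in Liver. It was well above background on 5 Peyer arrays, 1 Spleen array and no array of Jejunum or Liver, and it was left out of the tests. Its mean level in Peyer corresponds to at least 1.11-fold that in Jejunum, and no fold can be given against Liver.

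The accession-linked BCL6 probe was bright everywhere, with levels of 1.98, 4.03 and 4.21 in Peyer, 2.76, 2.997 and 3.18 in Spleen, 1.14, 1.40 and 1.68 in Jejunum, and 2.18, 2.65 and 3.54 in Liver (lowest, median and highest). The Peyer array of animal 71 lay below all Spleen and all Liver arrays and the other 5 Peyer arrays lay above both. The Peyer mean of 3.71 ± 0.85 and the Spleen mean of 2.97 ± 0.19 (SD, n = 6 each) differed by 0.74 ± 0.28, with an adjusted p of 0.0307 but under 2-fold. Without the Peyer array of animal 71 the difference was 1.08 ± 0.18 (adjusted p 2.57e-05) and passed both limits. Peyer exceeded Jejunum by 2.31 ± 0.28, a 4.94-fold difference called with an adjusted p of 5.76e-06, and by 2.65 ± 0.18 without that array. Within the slides that held both gut tissues this difference was 2.71, 1.58 and 2.63.

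Liver was close to Spleen for BCL6 on this probe. Spleen minus Liver was 0.25 ± 0.28 (adjusted p 0.438), and Jejunum lay below Liver by a called difference of -1.32 ± 0.28 (adjusted p 0.000306). Peyer minus Liver was 0.99 ± 0.28 with an adjusted p of 0.00348, just under 2-fold, and 1.33 ± 0.18 without the Peyer array of animal 71. By their means the order was Peyer, Spleen, Liver and Jejunum. With all arrays no pair among Peyer, Spleen and Liver was called apart.

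**Figure D2:**
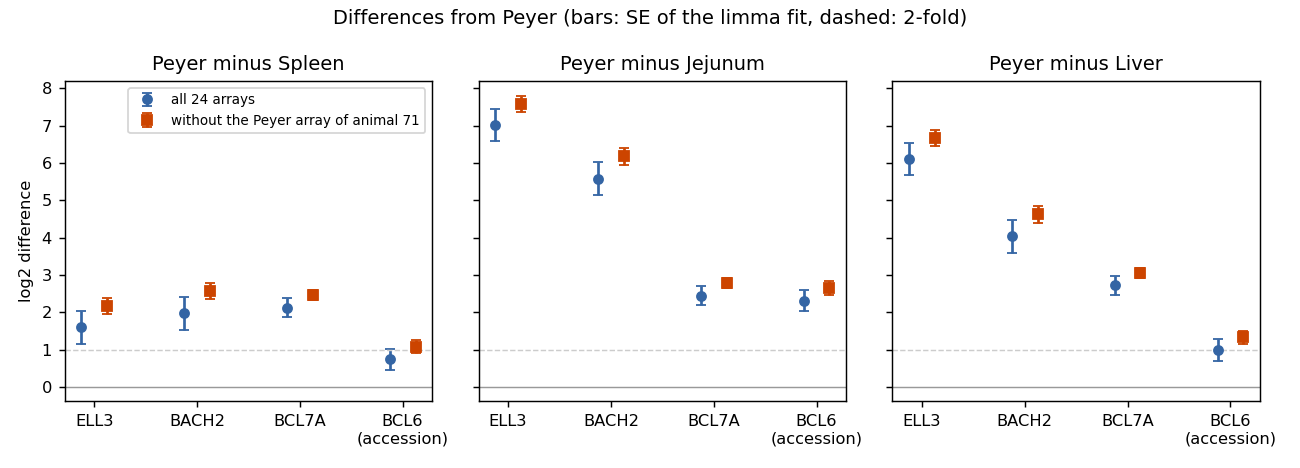
Log2 difference of each gene between Peyer and Spleen, Jejunum or Liver from the limma fit, with the SE as bars, for all 24 arrays and without the Peyer array of animal 71. The dashed line marks 2-fold. ELL3 ranges from 1.59 against Spleen to 7.01 against Jejunum, whereas BCL7A stays between 2.12 and 2.72 in the 3 comparisons.

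B cell genes changed along with the members between the gut tissues, and were closer between Peyer and Spleen. Of 8 B cell genes tested, 7 were called higher in Peyer than in Jejunum, and 0 were called between Peyer and Spleen by limma, where 1 had an unadjusted p under 0.05. Without the Peyer array of animal 71, 1 of the 8 was called higher in Peyer than in Spleen. MS4A1, which encodes the surface protein CD20, differed by -0.03 ± 0.44 between Peyer and Spleen, and CD79A and CD79B, the signalling chains of the B cell receptor, by 0.46 ± 0.39 and 0.41 ± 0.47. The median Peyer minus Spleen difference of the 8 genes was 0.33, against -0.11 over all genes tested. Without the Peyer array of animal 71 the B cell median was 0.86. The mean of MS4A1, CD79A and CD79B differed between Peyer and Spleen by -2.86 in animal 71 and by 0.59 to 1.12 in the other animals.

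Each member was then set against the mean of MS4A1, CD79A and CD79B on the same array, and the Peyer and Spleen values of that quantity were compared. Only its difference between tissues carries meaning, since levels of different probes are not on one scale. For ELL3 the member rose beyond the B cell genes by 1.31 (2.49-fold) in Peyer relative to Spleen, and by 1.02 to 1.77 in single animals. For BACH2 the excess was 1.69 (3.22-fold), with single animals between 0.68 and 2.08. For BCL7A it was 1.84 (3.59-fold), between 1.34 and 3.08, and 0.66 with the authors' values. The 3.08 was that of animal 71, in which BCL7A differed by 0.23 and the B cell genes by -2.86. Without animal 71 the BCL7A excess was 1.59. BCL7A itself averaged 0.46 in Jejunum and 0.78 in Spleen, so its level did not follow the B cell genes there. In animal 71 the B cell mean was -3.45 in Jejunum, -0.63 in Peyer and 2.23 in Spleen. A low B cell mean by itself raises this quantity for such a gene, so the 3.08 adds no separate support. For ELL3, BACH2 and BCL7A all 6 Peyer values lay above all 6 Spleen values and all 6 animals, animal 71 included, showed the same direction. The two-sided exact permutation p was 0.00216 for each, the smallest that 6 against 6 arrays can give. It was 0.00289 after Benjamini-Hochberg adjustment over the 4 genes compared. This test treats the arrays as unpaired, although both tissues came from the same 6 animals. A paired sign-flip test over 6 animals can give no p under 0.031. The share of all tested genes whose values separate in this way against the B cell genes is not given here. The 13.3% given beside BCL7A is for levels, so these 3 members cannot be set against it.

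The BCL6 accession probe did not pass the exact permutation test. Its excess over the B cell genes was 0.46, with an exact permutation p of 0.0671 before and after adjustment, higher in 5 of 6 animals. Animal 71 alone contributed 2.07, and the other animals lay between -0.12 and 0.33. Without animal 71 the value was 0.13. Its value also depended on which B cell genes were used, being 0.77 (adjusted p 0.00649 by the exact permutation test) against MS4A1 alone.

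**Figure D3:**
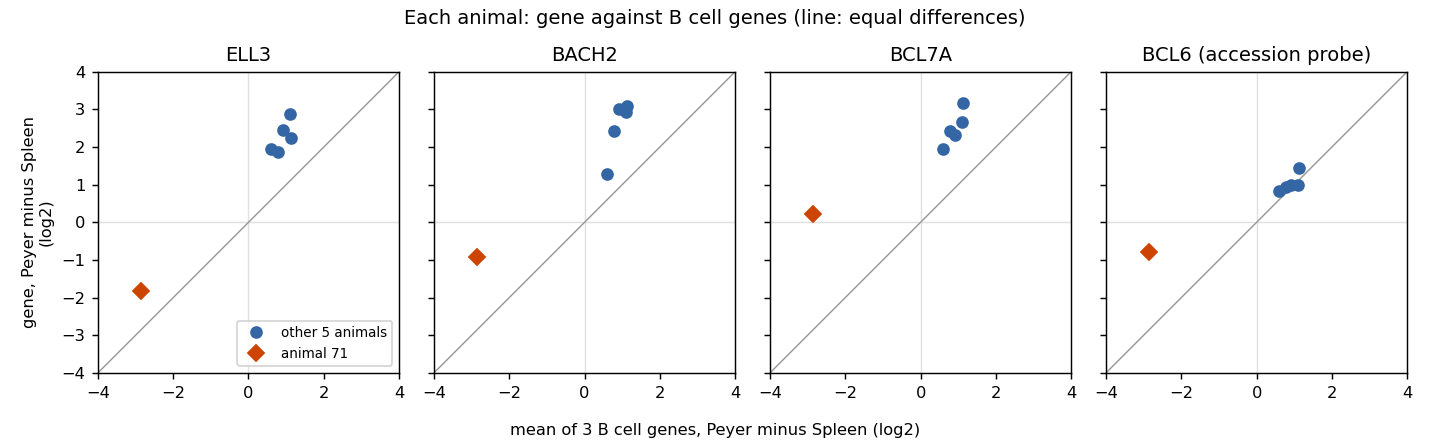
For each of the 6 animals, the Peyer minus Spleen difference of a gene (vertical, log2) against the same difference of the mean of 3 B cell genes (horizontal, log2). The line marks equal differences, and the diamond is animal 71. The points of ELL3, BACH2 and BCL7A lie above the line in 6 of 6 animals, with excesses from 0.68 to 3.08 (BCL7A in animal 71). Those of the BCL6 accession probe lie close to the line except for animal 71 at 2.07.

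Other cell types also differed between the tissues compared. Dividing-cell genes had a median Peyer minus Spleen difference of 0.67, and 0 of 12 were called by limma, 4 having an unadjusted p under 0.05. Without the Peyer array of animal 71, 5 of the 12 were called higher. The mean level of that list was 2.20 to 2.36 on the Peyer arrays other than animal 71, which had 0.68, and 0.74 to 1.89 on the Spleen arrays. Against Jejunum 9 of 12 were called higher in Peyer. Of 7 follicular dendritic cell genes, 5 were called higher in Peyer than in Jejunum. Against Spleen 2 were called lower in Peyer, VCAM1 by -2.73 ± 0.34 and TNFRSF1A by -1.08 ± 0.16. The median Peyer minus Spleen difference of the 7 genes was nevertheless 0.43. When the Peyer array of animal 71 was left out, 2 follicular dendritic cell genes were called higher in Peyer than in Spleen beside 2 lower, and 1 was called lower than in Jejunum beside 5 higher. Of 9 T cell genes, 4 were called higher in Peyer than in Jejunum and 3 lower in Peyer than in Spleen, among them SH2D1A, a signalling adaptor of follicular helper T cells, by -2.01 ± 0.34. These T cell counts were 5 and 2 without the Peyer array of animal 71. The part of these cell types in the members' differences was not tested.

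The lists of partner genes were described by their counts beside the median over all genes tested, which was -0.11 for Peyer minus Spleen and -0.12 for Peyer minus Jejunum. Of all genes, 14.9% were called lower in Peyer than in Spleen and 7.29% lower than in Jejunum, beside the shares called higher given above. Among 16 tested transcription factors of germinal centre B cells, 9 were called higher in Peyer than in Jejunum and 0 lower, with a median difference of 1.34. Against Spleen 2 were called higher and 3 lower, with a median of 0.31, and these counts were 3 higher and 2 lower without the Peyer array of animal 71. With all arrays the 2 were MEF2B, which activates BCL6 in human B cells, by 1.65 ± 0.38, and the B lineage factor EBF1 by 1.03 ± 0.31. The MEF2B probe was well above background on 6 Peyer, 5 Spleen, 3 Jejunum and 0 Liver arrays, so it entered the tests through Peyer alone. The 3 called lower were HHEX by -1.64 ± 0.20, ETS1 by -1.19 ± 0.18 and TCF3 by -1.04 ± 0.34. POU2AF1, the octamer coactivator, and LMO2 were 3.68 ± 0.36 and 2.90 ± 0.29 higher in Peyer than in Jejunum and were not called against Spleen.

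Of 6 tested genes of antibody mutation and switching, 1 was called higher in Peyer than in Spleen, with a median difference of 0.19, and 2 were called higher in Peyer than in Jejunum, with a median of 0.63. Without the Peyer array of animal 71, 3 were called higher against Jejunum. EXO1, a DNA repair exonuclease, was higher by 1.44 ± 0.46 against Spleen and 2.61 ± 0.46 against Jejunum. The DNA polymerase POLH was higher against Jejunum by 1.18 ± 0.24, and had 0.45 ± 0.24 against Spleen. APEX1 and TP53BP1, which act in DNA repair, had 0.48 ± 0.18 and -0.58 ± 0.14 against Spleen, both under 2-fold.

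Of genes that BCL6 or BACH2 are known to oppose, most of them of the plasma cell programme, 5 of the 10 listed could be tested. DERL3, an endoplasmic reticulum protein of secretory cells, was called lower in Peyer than in Spleen by -1.15 ± 0.34. CCND2, a cyclin gene that is not particular to plasma cells, was called lower by -1.47 ± 0.22. PRDM1, the master factor of plasma cells, had a difference of -0.48 ± 0.20 and XBP1 one of -0.47 ± 0.19, both under 2-fold. ELL2, the ELL family elongation factor of plasma cells, had -0.81 ± 0.25 (adjusted p 0.0088), also under 2-fold. Against Jejunum 0 of 5 were called by limma, 3 having an unadjusted p under 0.05.

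Direct partners of BCL6 showed 1 call among 7 tested corepressor genes between Peyer and Spleen. BCOR was lower by -1.47 ± 0.38, on a probe well above background on 4 Peyer, 6 Spleen, 3 Jejunum and 0 Liver arrays. It entered the tests through Spleen alone, the tissue in which it was higher. HDAC1 and HDAC2 had 0.40 ± 0.13 and 0.41 ± 0.15. None of the 7 was called against Jejunum, where 2 had an unadjusted p under 0.05.

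Among 11 tested partners and haem-response genes of BACH2, 4 were called lower in Peyer than in Spleen and 0 higher. They were NFE2, a factor of erythroid cells and megakaryocytes, by -5.22 ± 0.27, HMOX1, which degrades haem, by -4.61 ± 0.29, the related repressor BACH1 by -1.13 ± 0.19, and the iron exporter SLC40A1. SLC40A1 was not well above background on any Peyer array and was at least 3.79-fold higher in Spleen than in Peyer. Neutrophil genes, of which 4 of 5 were called lower in Peyer than in Spleen, moved with these, and their part was not tested. Against Jejunum 2 of 11 were called lower in Peyer, NFE2L2 by -1.07 ± 0.23 and NQO1 by -1.10 ± 0.41. When the Peyer array of animal 71 was left out, 5 were called lower against Spleen and 3 against Jejunum.

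Few partners of BCL7A or ELL3 were called. Of 15 tested BAF complex subunits, 0 were called by limma between Peyer and Spleen, with a median difference of -0.04, and 0 between Peyer and Jejunum, with a median of 0.26. At an unadjusted p under 0.05 these counts were 6 and 8, and without the Peyer array of animal 71 1 subunit was called lower in Peyer than in Spleen. The paralog BCL7B differed by 0.15 ± 0.13 and BCL7C by -0.43 ± 0.11 between Peyer and Spleen, beside 2.12 for BCL7A, and the core subunit SMARCC1 by -0.99 ± 0.21. Of 8 tested genes of the ELL family and its elongation complexes, ICE2 was called lower in Peyer than in Spleen, by -1.15 ± 0.30. ELL itself differed by 0.03 ± 0.11. Against Jejunum 0 of 8 were called, 4 having an unadjusted p under 0.05.

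Relatives of RGS13 and the chemokine genes that place cells in follicles completed the lists. Of 9 tested RGS genes, RGS5, known from vascular pericytes, was higher in Peyer than in Spleen by 2.45 ± 0.28 and RGS12 lower by -1.37 ± 0.23. RGS19 was the 1 called higher in Peyer than in Jejunum, by 1.99 ± 0.24, and RGS1, known in B cells, had 0.68 ± 0.24 against Spleen and 0.93 ± 0.24 against Jejunum. Leaving out the Peyer array of animal 71, 2 RGS genes were called higher and 1 lower in Peyer than in Jejunum. Of 10 chemokine and sphingosine signalling genes, 8 were called higher in Peyer than in Jejunum, led by the follicle chemokine CXCL13 at 5.61. Between Peyer and Spleen 4 were called lower, S1PR1, which lets lymphocytes leave tissues, by -1.85 ± 0.20, CXCL12 by -1.29 ± 0.25, CCL21 by -1.22 ± 0.36 and CCR7, the receptor for CCL21, by -1.13 ± 0.48. CCL19, the other ligand of CCR7, had a difference of 1.18 ± 0.51 and was not called (adjusted p 0.053). These counts against Spleen became 2 higher and 3 lower without the Peyer array of animal 71.

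**Figure D4:**
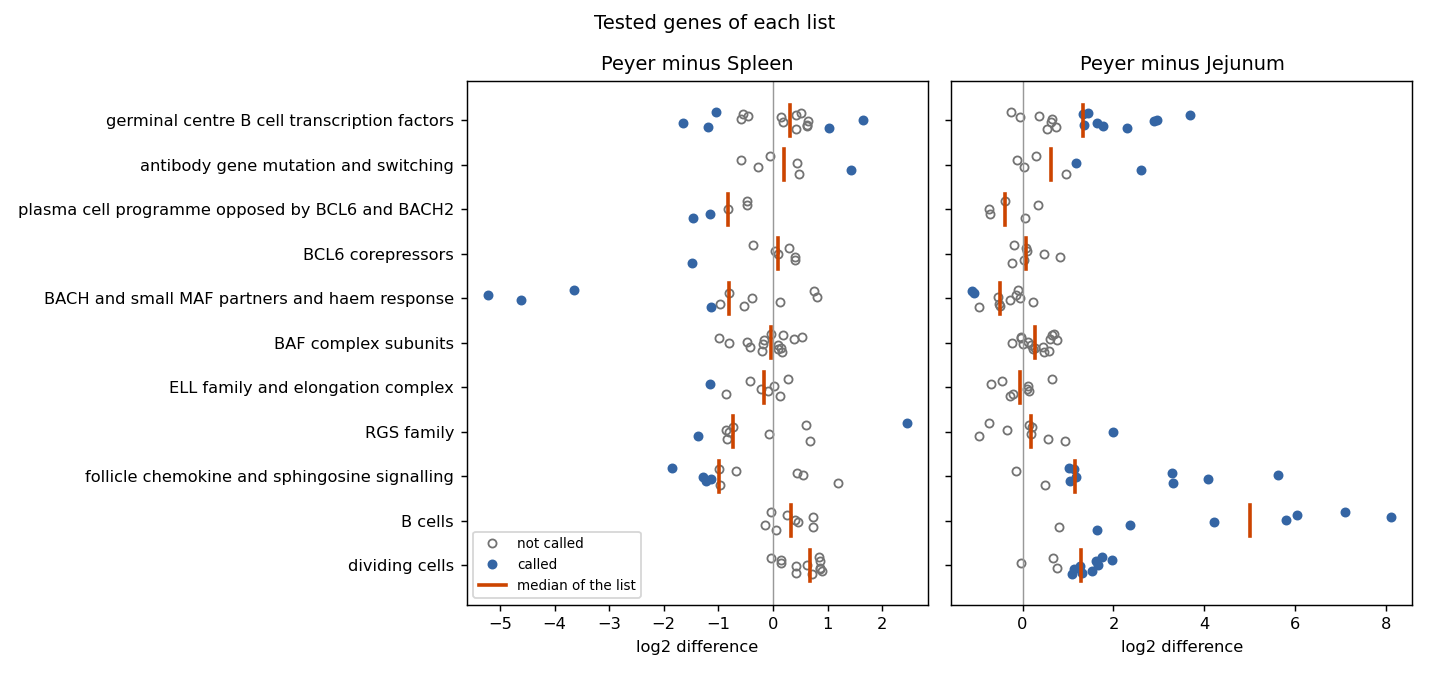
Log2 differences of the tested genes of 9 partner lists, of B cell genes and of dividing-cell genes, for Peyer minus Spleen on the left and Peyer minus Jejunum on the right. Filled points were called, open points were not, and the vertical bar is the median of the list. With all arrays, B cell genes have a median of 0.33 against Spleen and 5.0 against Jejunum. The 15 BAF complex subunits have -0.04 and 0.26.

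The genes whose profile over the 24 arrays lay nearest to each member differed between members. Likeness was the root mean square distance between profiles after each was centred on its own mean, in log2 units. Nearest to ELL3 were the B cell genes CD79B, FCRLA and MS4A1 at 0.788, 0.792 and 0.822, with a median of 3.12 over all genes. BACH2 lay nearest to CHST8 at 0.595, VPREB3, a protein associated with the B cell receptor precursor, at 0.699 and LY6G6F at 0.767. For BCL7A the nearest were SNAP91 at 0.444, the elongation factor TCEA1 at 0.479 and TOPBP1, which acts in DNA replication and damage checkpoints, at 0.481. The BCL6 accession probe lay nearest to PRPS1, SOAT1 and WDR91, at 0.383, 0.415 and 0.424. Between members, ELL3 and BACH2 were 1.09 apart and BCL7A and the BCL6 accession probe 0.81, while ELL3 and the BCL6 accession probe were 2.33 apart. These distances also depend on how much a gene varies. The root mean square of the centred profile was 3.04 for ELL3, 2.23 for BACH2, 1.15 for BCL7A and 0.95 for the BCL6 accession probe. The median distance over all genes was 2.35 for BACH2, 1.355 for BCL7A and 1.16 for the BCL6 accession probe.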

How the data were processed

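Per the labels, each sample gave 200 ng of total RNA (integrity number above 7.5), which was Cy3-labelled and put on 1 array. The deposited scanner files give intensity as Agilent Feature Extraction 10.10.1.1 computed it, with background already subtracted and no normalization between arrays (per the file headers). The authors' deposited table holds log2 values whose sorted columns are identical, with a median of 8.24 in each, as quantile normalization gives; no source used here states its centring. The submitters' processing notes name limma.

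The level used here is log2 of the processed signal minus the 75th percentile of the array. A probe was kept if 1 or more tissues had it well above background on each of their 6 arrays and if it had no outlier flag. That left 42650 of 60305 probes, and none was saturated. A gene with several probes was represented by the brightest. Of the probes, 34634 carried no usable gene name. Tissues were compared with limma 3.58.1 in R 4.3.3 over all 24 arrays, with Benjamini-Hochberg adjustment over all tested probes; precision is limited by the number of arrays. Differences are given with the SE of that fit. The procedure was tested on simulated data. Exact permutation tests compared 6 Peyer with 6 Spleen values. Some genes are not reported here; they were left out of the lists and of the B cell mean, which uses MS4A1, CD79A and CD79B, after values had been seen.

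Samples with the same number came from the same animal, per the labels, so the tissues are paired; deviations from tissue means correlated at a mean r of 0.17 over 36 same-animal pairs (lowest -0.021, 26 of them over 0.1). The fit with animal as a replicate block is an alternative. Others were median centring, quantile normalization, normexp background correction with an offset of 50, the authors' values, no filter on dim probes, slide as a block, the 12 arrays compared alone, other probes and leaving out each animal.

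The members and lists were chosen with earlier results of these data known. The genes named from each list were drawn from the 4 with the largest absolute Peyer minus Spleen difference and 2 more by Peyer minus Jejunum; some of these that were called in neither comparison are left to the counts. Each member was given with its 3 nearest genes; EBF1, BCL7B, BCL7C, ELL, VCAM1, TNFRSF1A and SH2D1A are also named because a count or a member turned on them. The genome build is not given in the files used here, so no positions are printed.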

Additional observations from a re-analysis of the deposited data

Results flagged for a closer look

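In each tissue the highest or lowest of the 6 values was set against the others by Dixon's test at the 95% level. Chance flags about 1 in 20 groups, and 22 of 84 groups were flagged here. Of these, 12 were the Peyer array of animal 71, which was set apart by its low level of BACH2 (-1.56), ELL3 on its 3 probes (0.85, 0.34 and -3.57), BCL7A (1.21), the dimmer accession-linked BCL7A probe (-8.16) and the accession-linked BCL6 probe (1.98). The same array was low for the mean level of B cell genes (-0.79), follicular dendritic cell genes (0.49) and dividing-cell genes (0.68), and high, set against B cell genes, for BCL7A (1.84, against 0.31 to 0.84 on the other Peyer arrays) and for the accession-linked BCL6 probe (2.61, against 1.07 to 1.57).

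The other flagged values belonged to several animals. BACH2 in Spleen was high in animal 70 as a level (0.33) and set against B cell genes (-1.70), and the brighter accession-linked BCL7A probe in Jejunum was low in animal 73 (-6.45). Among marker lists, the mean levels set apart were follicular dendritic cell genes in Spleen of animal 75 (2.32), tuft cell genes in Spleen of animal 73 (-1.77) and in Jejunum of animal 69 (-2.48), enterocyte genes in Spleen of animal 73 (-2.30) and in Liver of animal 68 (-3.04), smooth muscle genes in Spleen of animal 70 (3.97) and hepatocyte genes in Liver of animal 73 (9.11).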

How the results depend on the processing

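With animal as a replicate block no call of a member changed. The adjusted p for Peyer minus Spleen was then 0.0055 for ELL3, 0.00162 for BACH2, 1.79e-06 for BCL7A and 0.0135 for the accession-linked BCL6 probe. On their named probes the 3 members stayed called in Peyer against Spleen, Jejunum and Liver, except BCL7A against Spleen with the authors' values (0.997). The mean over a gene's probes took in named probes only, so for BCL7A it was the named probe alone. A BCL7A mean that also takes in the brighter accession-linked probe, which had -0.48 against Spleen, is not given here. Against Spleen and Liver, slide as a block cannot remove a slide effect, because no slide held both tissues. Leaving out 1 animal at a time, the Peyer minus Spleen difference was 1.34 to 2.28 for ELL3, 1.75 to 2.54 for BACH2, 1.91 to 2.50 for BCL7A and 0.59 to 1.04 for the BCL6 probe. Between Jejunum and Liver 2 members in place of 1 were called with the authors' values, with the mean over a gene's probes and with the BCL6 probe added. ELL3 was called there at -1.47 with the authors' values and -1.01 with the probe mean. BCL7A reversed in that comparison to -0.922 with the authors' values, and the cause was not tested; the BCL6 probe lost its call there (-0.81). The excess of the BCL6 accession probe over B cell genes passed the exact permutation test with the authors' values (0.777, adjusted p 0.00289). It also passed with MS4A1 as the B cell gene (0.769, adjusted p 0.00649). It ran from 0.134 to 0.571 when 1 animal was left out, lowest without animal 71 and passing without animal 75 (adjusted p 0.0476). The BCL6 accession probe was also called in Peyer against Spleen with median centring (1.003) and with the authors' values (1.12). Against Liver it was called with median centring (1.14), quantile normalization (1.24), normexp (1.03), the authors' values (1.56) and without animal 73 (1.07). Over all tested probes the median Peyer minus Spleen difference was -0.18, and 0.09 with median centring, -0.08 with quantile normalization, -0.34 with normexp and -0.05 with the authors' values. Of the genes called, 41.7% were higher in Peyer than in Spleen, against 59.5% with median centring and 65.1% with the authors' values, and 44.5% were higher than in Jejunum, against 63.8%, 55.0% with quantile normalization and 56.4% with the authors' values. The authors' values called 1185 genes between Peyer and Spleen in place of 2724, 2103 in place of 4291 between Peyer and Liver, 2083 in place of 3273 between Spleen and Jejunum and 1244 in place of 3552 between Jejunum and Liver. With 6 animals a tissue and the probe named BCL6 near background, any reading of BCL6 rests on 1 probe that does not carry its name.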

Other observations

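Mast cell and tuft cell genes, which are also found in the gut wall, did not separate the gut tissues. Between Peyer and Jejunum 0 of 4 mast cell genes and 0 of 6 tuft cell genes were called by limma, and 0 of either had an unadjusted p under 0.05. Against Spleen 1 mast cell gene was called higher in Peyer and 2 lower, and 2 tuft cell genes were called lower, or 3 without the Peyer array of animal 71. Of 6 smooth muscle genes 5 were called lower in Peyer than in Jejunum, with a median difference of -1.45, and 4 without that array. Hepatocyte genes had mean levels of -3.24 to -1.72 in Peyer, -3.95 to 0.54 in Spleen, -2.23 to -1.40 in Jejunum and 8.85 to 9.11 in Liver.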
